A study of Mus musculus with 5 samples.

Results

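A set of 10 imprinted genes were followed in mouse liver tumours with and without late Prox1 overexpression. They are H19, Igf2, Meg3, Rian, Dlk1, Peg3, Cdkn1c, Plagl1, Grb10 and Igf2r, which were taken by gene symbol from a table of 55397 genes and grouped by imprinted cluster and by the parental allele that is expressed. All 10 were found in the table. They were picked with the comparison of Prox1 overexpression (Prox1 OE) and Control in view. Their own differences between these groups are therefore described here without a test, and tests are kept for other genes. The lists of other genes were also chosen with earlier results of these data known, so their shares of called genes are descriptions.

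Bulk RNA-seq had been run on liver tumour nodules from female C57BL/6N mice aged 8 weeks at injection. Both groups had received Akt and the NOTCH1 intracellular domain (NICD) on EF1a-driven transposon plasmids by hydrodynamic injection into the tail vein, which delivers DNA to hepatocytes and, with these genes, gives tumours resembling bile duct cancer (cholangiocarcinoma, CCA). The NICD plasmid also carried rtTA, the switch that doxycycline activates, and Sleeping Beauty transposase inserted the plasmids. In the 3 Prox1 OE tumours a further plasmid held FLAG-tagged mouse Prox1 with GFP behind a doxycycline-responsive promoter, and in the 2 Control tumours the same plasmid held GFP without Prox1. Doxycycline food (6.25%) was started on day 21, so that the transgene was on from week 3 to week 4. Tumours were collected either when that week ended or once a humane endpoint was reached, with no record here of which was collected when. The study describes the RNA as taken from several mice per condition, but the labels do not tie each library to a mouse, so p-values measure only the spread between these libraries. Library totals ran from 48740863 to 56629477 reads. Prox1 itself had 4153 and 4664 normalised counts in Control and 48090, 11113 and 8231 in Prox1 OE replicates 1, 2 and 3, so replicate 1 stood far above the other Prox1 OE libraries, and the log2 difference of 1.90 (SE 0.66, adjusted p = 0.061) was not called. Markers of hepatocytes and of cholangiocytes were read in every library, and none of the 5 markers of either list was at 0.

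Imprinted genes are transcribed mainly from the copy inherited from either the mother or the father. They lie in clusters, each under an imprinting control region whose DNA methylation is set in the germ line and then kept by factors such as ZFP57, TRIM28 and DNMT1. H19, a non-coding RNA, and Igf2, a fetal growth factor, share such a region and enhancers, and are expressed from the maternal and the paternal chromosome respectively. The Dlk1-Dio3 cluster pairs paternally expressed Dlk1 with a maternal run of non-coding RNAs that includes Meg3, Rian and Mirg. Many of these genes are abundant in fetal liver and are shut down after birth, and several return in liver tumours. Because C57BL/6N mice are inbred, the reads cannot be assigned to a parental chromosome. The data therefore measure total RNA of each gene, and allele names below are background.

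H19, Meg3 and Rian also host microRNAs, and these short sequences are shown because they are the best-defined products of the non-coding members. RefSeq (GRCm38.p6) places 13 mature microRNAs on the same strand inside 4 members, 2 in H19, 2 in Igf2, 3 in Meg3 and 6 in Rian, with 13 different seeds. Those of H19 and Meg3 lie in exons, and those of Igf2 and Rian lie in introns. Both arms of 1 hairpin per host follow, 5′ to 3′, with the seed (bases 2 to 8) in capitals.
miR-675-5p: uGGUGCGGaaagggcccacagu
miR-675-3p: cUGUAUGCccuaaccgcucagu
miR-483-5p: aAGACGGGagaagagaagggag
miR-483-3p: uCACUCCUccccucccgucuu
miR-770-5p: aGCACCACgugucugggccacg
miR-770-3p: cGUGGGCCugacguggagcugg
miR-370-5p: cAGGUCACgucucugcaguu
miR-370-3p: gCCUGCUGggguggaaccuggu
The first of these arms, miR-675-5p, lies at chr7:142577112-142577133 on the minus strand in H19, miR-770-5p at chr12:109563710-109563731 on the plus strand in Meg3, and miR-370-3p at chr12:109618305-109618326 on the plus strand in Rian. Mature microRNAs are too short to be measured in these libraries. Of 67 microRNA rows between Dlk1 and Dio3 in the table, 2 had any read, with 7 reads over all libraries, so the results below concern the long host RNAs.

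Dlk1 and the Meg3 run are expressed from opposite parental chromosomes, and the 250 bases before the RefSeq start of each are shown, 5′ to 3′ on the plus strand, so that the starts of genes whose values moved apart can be compared. CpG dinucleotides, the sites of DNA methylation, are in capitals. The Meg3 stretch (chr12:109540746-109540995) holds 10 and the Dlk1 stretch (chr12:109452573-109452822) holds 8.
Meg3: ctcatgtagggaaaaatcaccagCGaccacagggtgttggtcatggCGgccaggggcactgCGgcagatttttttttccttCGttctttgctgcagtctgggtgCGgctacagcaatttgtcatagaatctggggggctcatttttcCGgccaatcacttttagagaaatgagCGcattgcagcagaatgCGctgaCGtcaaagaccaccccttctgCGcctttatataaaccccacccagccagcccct
Dlk1: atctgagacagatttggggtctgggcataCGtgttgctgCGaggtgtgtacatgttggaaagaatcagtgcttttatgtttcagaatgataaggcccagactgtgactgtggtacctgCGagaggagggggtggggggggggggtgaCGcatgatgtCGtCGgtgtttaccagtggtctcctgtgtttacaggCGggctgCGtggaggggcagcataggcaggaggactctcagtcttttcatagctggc
Over 300-base windows, from 250 bases before to 50 after a RefSeq start, 8 of the 10 members had an entry, with 13 windows among them. CpG counts ran from 0 for Rian to 45 for 1 of the Grb10 windows, beside a median of 7 over all 32851 windows. The letters TGCCGC on either strand, the core that ZFP57 is known to bind when methylated, occurred in 4 of the 13 windows (Meg3, Plagl1, Grb10 and Igf2) and in 11.6% of all windows. These letters hold a CpG, and the windows were not matched for CpG content, so no excess is read from these shares. H19 and Cdkn1c had no entry.

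H19 showed the widest difference of the set. H19 (ENSMUSG00000000031, mm10, chr7:142575529-142578143, minus strand, lincRNA) is a maternally expressed non-coding RNA of fetal liver. Normalised counts were 243 and 314 in Control, against 4882, 1838 and 1458 in Prox1 OE replicates 1, 2 and 3. The groups did not overlap, and the lowest Prox1 OE library was 4.64 times the highest Control library. The mean rose from 279 ± 50.4 (SD, n = 2) in Control to 2726 ± 1877 (SD, n = 3), a 9.78-fold difference of means. On the log2(normalised count + 1) scale the difference was 3.09 (SE 0.46), which stood in place 42 from the top among 17105 genes tested. Without Prox1 OE replicate 1 it was 2.56. In bulk tumour RNA, more or fewer cells of a type cannot be told apart from more or less RNA per cell, here and in every result below.

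The order of the libraries for H19 was also their order for Prox1. Prox1 OE replicate 1 was highest in both, with a 5.84-fold range of Prox1 and a 3.35-fold range of H19 among the Prox1 OE libraries. H19 reads per Prox1 read were 0.0586 and 0.0674 in Control and 0.102, 0.165 and 0.177 in Prox1 OE replicates 1, 2 and 3, so that H19 did not keep a fixed ratio to Prox1. With 5 libraries no correlation was computed. Reads of the Prox1 plasmid and of the mouse gene were not separated in the table.

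**Figure D1:**
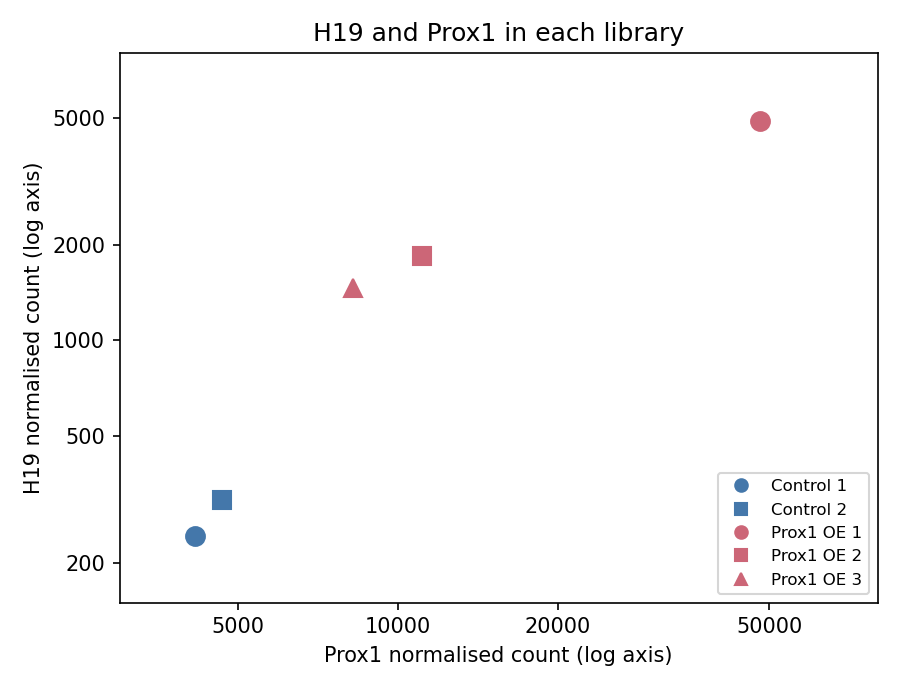
H19 against Prox1, both in normalised counts on log axes, with 1 point per library (blue, 2 Control; red, 3 Prox1 OE). Control libraries lie at 243 and 314 for H19, and Prox1 OE replicate 1 lies at the top right with 4882 for H19 and 48090 for Prox1.

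Igf2, the partner of H19, was not detectable as an expressed gene at this depth. Igf2 (ENSMUSG00000048583, chr7:142650766-142666816, minus strand, protein coding) encodes a growth factor that acts through the IGF1 receptor. It had 0 and 0 reads in Control and 3, 2 and 0 reads in Prox1 OE replicates 1, 2 and 3. Every library was at or under the floor of 3 reads, so no fold is given. From H19 through Igf2 to Ins2, these genes included, the table had 10 rows, and 5 of them held at least 1 read. Ins2, the paternally expressed insulin gene beside Igf2, had none.

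In the Dlk1-Dio3 cluster the non-coding members and Dlk1 lay on opposite sides. Meg3 (ENSMUSG00000021268, chr12:109541001-109571726, plus strand, lincRNA) is a maternally expressed long non-coding RNA. It had 159 and 326 normalised counts in Control, against 877, 696 and 459 in Prox1 OE replicates 1, 2 and 3. All Prox1 OE libraries were above both Control libraries, although the lowest was only 1.41 times the highest Control library. The means were 242 ± 119 (SD, n = 2) and 678 ± 210 (SD, n = 3), and the log2 difference was 1.52 (SE 0.36). It was 1.00 without Control replicate 1 and 2.04 without Control replicate 2, since the Control libraries themselves differed 2.06-fold.

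Rian (ENSMUSG00000097451, chr12:109603940-109661716, plus strand), the host of snoRNAs and microRNAs downstream of Meg3, had 224 and 361 normalised counts in Control and 1059, 486 and 527 in Prox1 OE replicates 1, 2 and 3. The groups did not overlap, with replicate 1 again highest. The log2 difference was 1.18 (SE 0.36). None of the 23 snoRNA rows of the cluster had a read, so the measurement rests on the host RNA. Mirg, the next host RNA in the maternal run and not a member of the set, had 18.9 and 23.7 in Control and 139, 80.2 and 68.3 in Prox1 OE, a log2 difference of 2.06 (SE 0.37, adjusted p = 0.0071 by limma), which was no longer called without Control replicate 1 (1.90, adjusted p = 0.069).

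Dlk1 (ENSMUSG00000040856, chr12:109452823-109463336, plus strand, protein coding) is paternally expressed and encodes a membrane protein related to Notch ligands that marks fetal hepatoblasts. It had 139 and 189 normalised counts in Control and 48.1, 36.6 and 18.5 in Prox1 OE replicates 1, 2 and 3. Each Control library was at least 2.89 times every Prox1 OE library. Means were 164 ± 35.5 (SD, n = 2) and 34.4 ± 14.9 (SD, n = 3), with a log2 difference of -2.30 (SE 0.42).

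Ratios within a library do not depend on how libraries were scaled. Meg3 reads per Dlk1 read were 1.14 and 1.73 in Control and 18.3, 19.03 and 24.8 in Prox1 OE, so the groups were far apart by this measure. Meg3 per Rian read was 0.707 and 0.904 in Control and 0.828, 1.43 and 0.873 in Prox1 OE, where the groups overlapped. Meg3 per Mirg also overlapped between the groups, at 8.39 and 13.8 in Control and 6.31, 8.68 and 6.73 in Prox1 OE. Dio3, the paternally expressed deiodinase at the other end, stayed near the limit of the filter, at 11.5 and 14.4 in Control and 1.02, 10.6 and 16.2 in Prox1 OE.

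**Figure D2:**
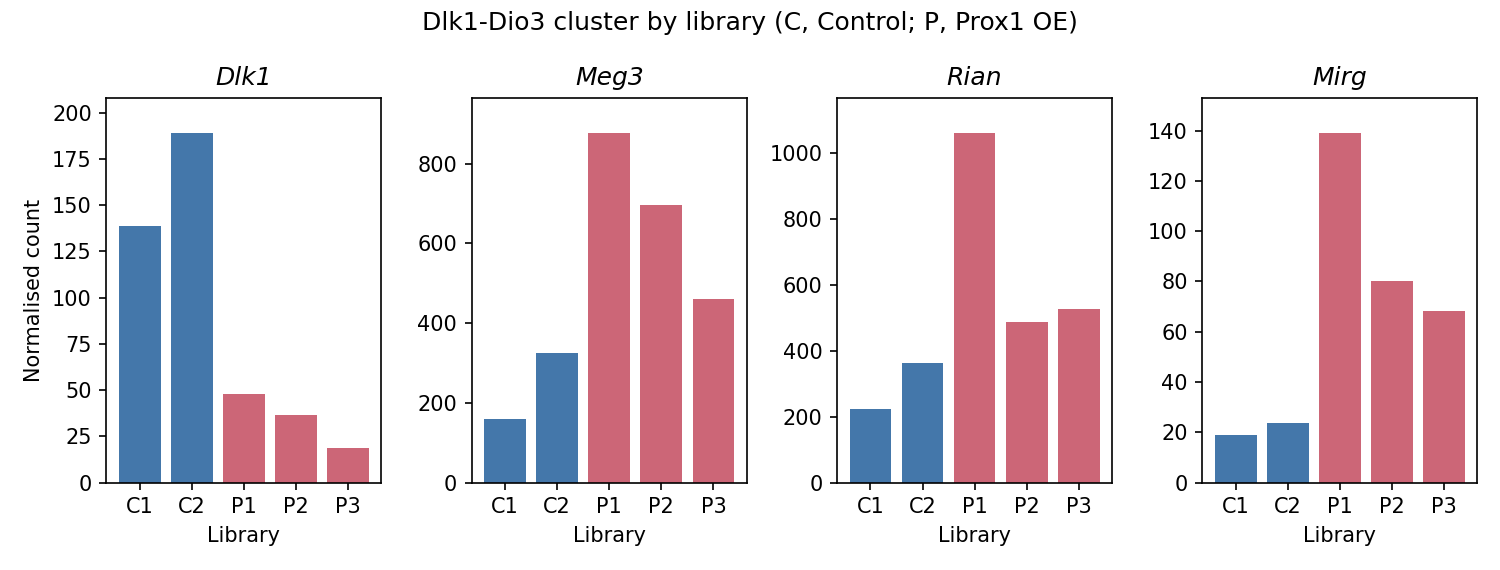
Normalised counts of Dlk1, Meg3, Rian and Mirg in each library, with a separate linear axis from 0 for each gene (C1 and C2, Control; P1 to P3, Prox1 OE). Dlk1 stands highest in the Control libraries, and Meg3, Rian and Mirg stand higher in all 3 Prox1 OE libraries.

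Peg3 and Grb10 were lower in every Prox1 OE library. Peg3 (ENSMUSG00000002265, chr7:6703892-6730431, minus strand, protein coding) is a paternally expressed zinc finger protein. It had 1198 and 1288 normalised counts in Control and 716, 532 and 560.2 in Prox1 OE replicates 1, 2 and 3. Both groups were narrow, and the lowest Control library was 1.67 times the highest Prox1 OE library. The log2 difference was -1.05 (SE 0.16).

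Grb10 (ENSMUSG00000020176, chr11:11930508-12038683, minus strand, protein coding), an adaptor that restrains insulin and IGF receptor signalling, is maternally expressed outside the brain. Its values were 10401 and 9420.0 in Control and 5118, 4505 and 4229 in Prox1 OE replicates 1, 2 and 3. The means were 9911 ± 694 (SD, n = 2) and 4617 ± 455 (SD, n = 3), and the log2 difference of -1.10 (SE 0.13) had the smallest error of the set. The lowest Control library was 1.84 times the highest Prox1 OE library.

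Igf2r, Cdkn1c and Plagl1 showed small or overlapping differences. Igf2r (ENSMUSG00000023830, chr17:12682406-12769664, minus strand, protein coding) is maternally expressed and encodes the receptor that takes up and degrades IGF2. It had 6517 and 6251 normalised counts in Control and 5671, 4272 and 4316 in Prox1 OE replicates 1, 2 and 3. The groups were separated by only 1.102-fold, and the log2 difference was -0.44 (SE 0.15). Scaling by total count moved Igf2r to -0.87 and the median of all genes to -0.44, while upper-quartile scaling moved that median to 0.06.

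Cdkn1c (ENSMUSG00000037664, chr7:143458339-143461050, minus strand, protein coding), the maternally expressed cell cycle inhibitor p57, had 707 and 382 in Control and 1183, 695 and 657 in Prox1 OE. The groups overlapped, with a log2 difference of 0.65 (SE 0.33) that was 0.20 without Control replicate 2 and 1.09 without Control replicate 1. Plagl1 (ENSMUSG00000019817, chr10:13060504-13131694, plus strand, protein coding), a paternally expressed zinc finger transcription factor, had 101 and 155 in Control and 107, 43.7 and 88.0 in Prox1 OE. These also overlapped, with a log2 difference of -0.74 (SE 0.42) that was -0.36 without Prox1 OE replicate 2.

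**Figure D3:**
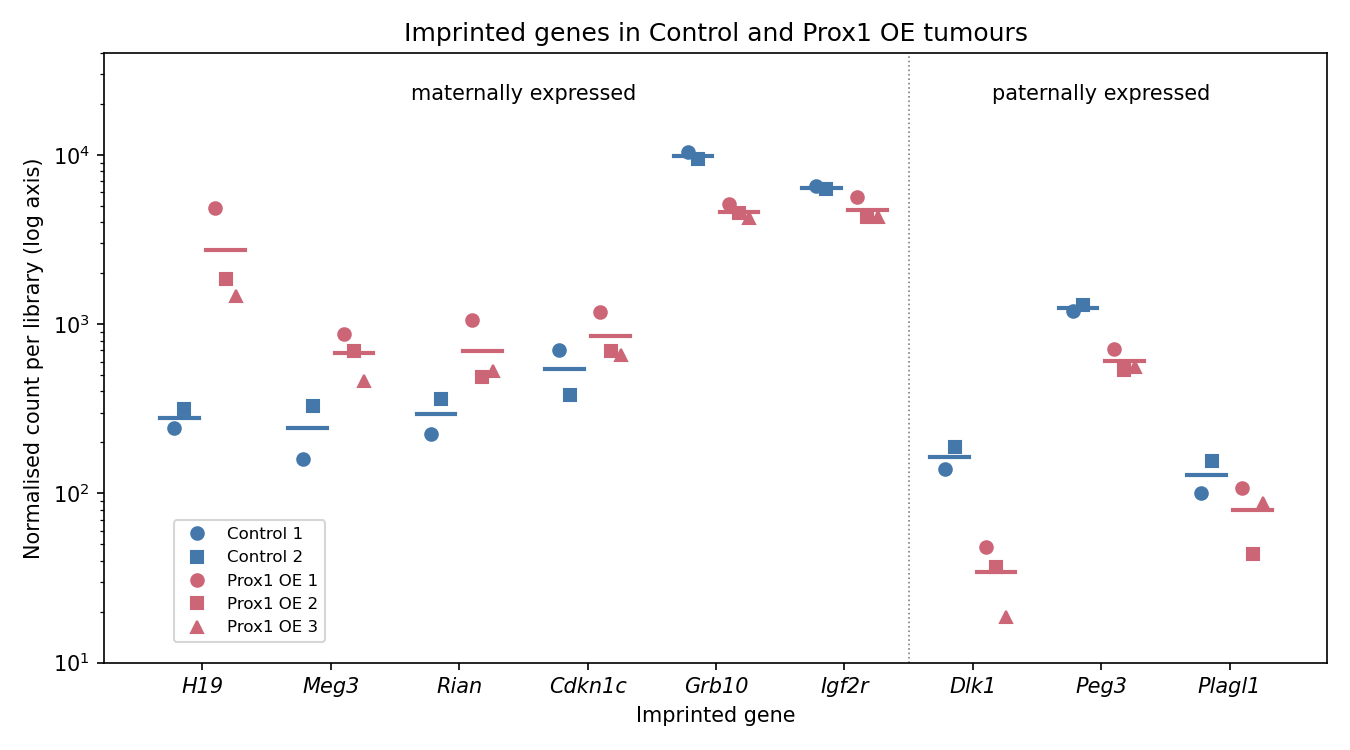
Normalised counts of 9 imprinted genes on a log axis, with 1 point per library (blue, 2 Control; red, 3 Prox1 OE) and a bar at each group mean. H19, Meg3 and Rian stand higher and Grb10, Igf2r, Dlk1 and Peg3 lower in all Prox1 OE libraries, while Cdkn1c and Plagl1 overlap. Igf2 is not drawn.

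Across the set, 9 of 10 genes passed the filter of a mean normalised count of 10, and 7 of those 9 had groups that did not overlap, 3 higher and 4 lower. Groups did not overlap for 63.3% of all 17105 genes tested, and since the genes were picked from this comparison nothing is read from their count. The count was 7 under TMM, upper-quartile and total-count scaling. Of the maternally expressed genes H19, Meg3 and Rian were higher and Grb10 and Igf2r lower in all Prox1 OE libraries, so the direction differed among genes of the same parental origin. Both paternally expressed genes with separate groups, Dlk1 and Peg3, were lower in Prox1 OE.

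Levels of different genes were compared per kilobase of merged exons. In Control the order was Grb10 (1090.4 normalised counts per kb, SD 76.3), Igf2r (686, SD 20.2), Cdkn1c (267, SD 113), H19 (113, SD 20.5), Peg3 (93.3, SD 4.81) and Dlk1 (29.0, SD 6.27), whose ranges did not overlap from gene to gene. Plagl1, Rian and Meg3 followed at 16.4, 16.1 and 13.4 per kb with overlapping ranges, and Igf2 was last. In Prox1 OE H19 led at 1108 per kb (SD 763), with ranges that overlapped from H19 to Igf2r (511, SD 85.5), from Igf2r to Grb10 (508, SD 50.04) and from Grb10 to Cdkn1c (414, SD 144). Peg3 (45.2), Rian (37.9) and Meg3 (37.5) came next with overlapping neighbours, then Plagl1 (10.2) and Dlk1 (6.08). Dlk1 and Plagl1 overlapped in Prox1 OE, so their order there was not resolved. H19 had the fourth highest mean in Control and the highest in Prox1 OE, where its range overlapped that of Igf2r. The merged exons of Meg3 (18089 bases) and Rian (18234 bases) cover all annotated isoforms, which lowers their level per kilobase.

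Other imprinted genes went in both directions. Of 45 listed, 35 were tested, 7 rose, 7 fell and 21 did not pass an adjusted p of 0.05. That is 40.0% called, beside 33.3% of all genes (17.1% higher and 16.2% lower). Their median log2 difference was -0.19, beside -0.02 for all genes. Among 16 genes listed as maternally expressed 4 rose and 3 fell, and among 19 listed as paternally expressed 3 rose and 4 fell. These alleles were listed from general knowledge of mouse imprinting. Whether each gene is imprinted in these liver tumours was not measured. In the clusters of the genes above, 11 were tested, of which 4 rose and 3 fell, and in other clusters 24 were tested, of which 3 rose and 4 fell. With total-count scaling 13 of the 35 were lower, as were 6833 of all genes in place of 2769 in the main fit. Without Control replicate 1 fewer genes were called in both directions, in this list and over all genes.

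The 7 genes that rose were Mirg, described above, and 6 others. Slc22a18, a maternally expressed transporter of the Cdkn1c cluster, went from 2587 and 3128 in Control to 7169, 7947 and 8474 in Prox1 OE (log2 difference 1.46, SE 0.13, adjusted p = 0.0019). Slc22a3, an organic cation transporter beside Igf2r whose imprinting is known from placenta, went from 87.1 and 124 to 326, 299.7 and 379.6 (1.67, SE 0.23, adjusted p = 0.0031). Ddc, dopa decarboxylase, is the neighbour of Grb10 and lay on the opposite side from it, with 2440.1 and 2062 in Control and 5315, 4197 and 5889 in Prox1 OE (1.18, SE 0.17, adjusted p = 0.0034). Snrpn, a splicing protein gene, rose with 1.01 (SE 0.15, adjusted p = 0.0037), Slc38a4, a liver amino acid transporter, with 0.78 (SE 0.18, adjusted p = 0.015), and Blcap with 0.48 (SE 0.14, adjusted p = 0.040). Snrpn lost its call without Control replicate 1, and Slc38a4 and Blcap lost theirs without either Control replicate and with total-count scaling. Blcap also lost it without Prox1 OE replicate 2 or 3, with no filter, without the trend and with the replicate block (adjusted p = 0.086).

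Falling genes were led by Rasgrf1, a paternally expressed activator of Ras, with 55.9 and 132 in Control and 18.4, 7.08 and 4.63 in Prox1 OE (log2 difference -3.18, SE 0.63, adjusted p = 0.0093). Its size was -3.80 without Control replicate 1, -2.57 without Control replicate 2 and -2.33 with a pseudocount of 10. Mest, a paternally expressed gene of fetal tissues, fell from 1328 and 1856 to 657, 442 and 684 (-1.43, SE 0.23, adjusted p = 0.0051). Kcnq1, a maternally expressed potassium channel in the Cdkn1c cluster, fell from 9528 and 10458 to 3995, 4141 and 2499 (-1.53, SE 0.22, adjusted p = 0.0035). Nnat (-1.68, SE 0.46, adjusted p = 0.029), Slc22a2 (-1.002, SE 0.25, adjusted p = 0.020), Airn (-0.96, SE 0.19, adjusted p = 0.0085) and Ppp1r9a (-0.70, SE 0.14, adjusted p = 0.011) completed the list. Nnat, Slc22a2 and Ppp1r9a lost their call without either Control replicate, Airn without Control replicate 1 and Rasgrf1 without Control replicate 2. Slc22a2 also lost it without Prox1 OE replicate 2, and Nnat without Prox1 OE replicate 3, with no filter and with the replicate block (adjusted p = 0.053).

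Antisense pairs were read side by side. Airn is the paternal antisense RNA that silences Igf2r on its chromosome, and had 461 and 378 in Control and 191, 221 and 230.3 in Prox1 OE. Igf2r reads per Airn read were 14.1 and 16.5 in Control and 29.7, 19.4 and 18.7 in Prox1 OE, so Airn was lower by more than Igf2r in each Prox1 OE library. Kcnq1ot1, the paternal antisense RNA over Kcnq1 that controls Cdkn1c, did not pass the test (log2 difference -0.19, SE 0.21, adjusted p = 0.51). Kcnq1 reads per Kcnq1ot1 read were 71.6 and 74.3 in Control and 35.8, 32.2 and 20.8 in Prox1 OE. The strand setting of the counting is not given in the sources used here, so reads of these overlapping pairs, and of Nnat inside Blcap, may not be fully separated.

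**Figure D4:**
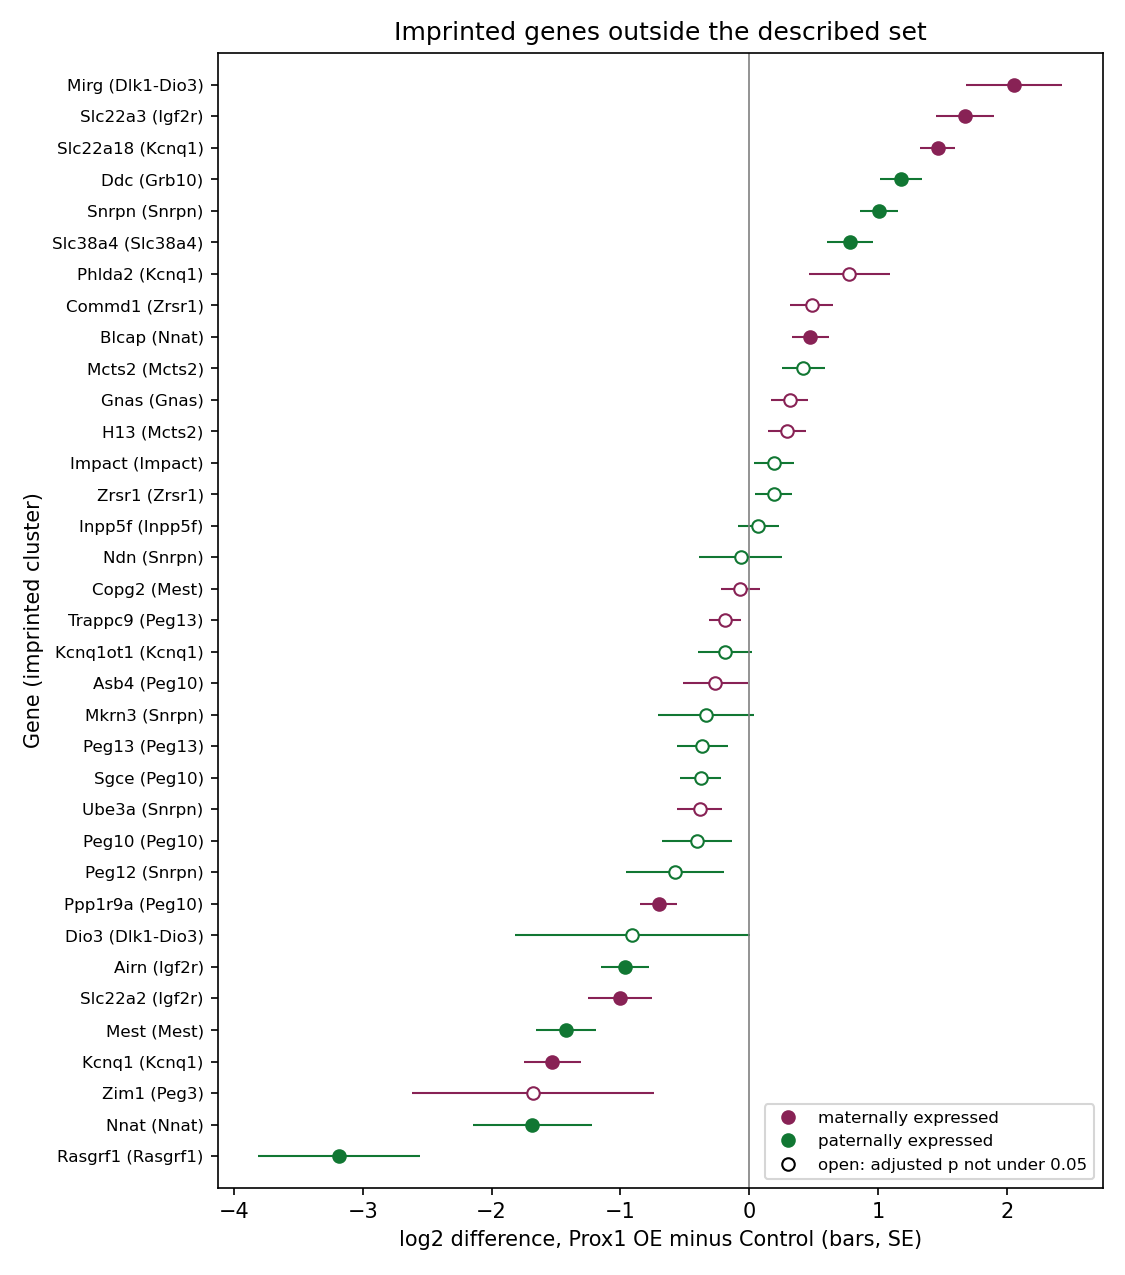
Log2 difference (Prox1 OE minus Control, with SE bars) of the 35 other imprinted genes tested. Colour gives the parental allele listed as expressed, and open points mark an adjusted p not under 0.05. Both colours appear on both sides of 0, from Mirg at 2.06 to Rasgrf1 at -3.18.

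A list of 11 regulators of imprints and DNA methylation held factors that keep methylation, factors that add it and factors that begin its removal. All 11 were tested, 8 fell and 3 did not pass the test. That is 72.7% called, beside 33.3% of all genes and 16.2% called lower. Since the list was chosen with earlier results of these data known, no excess is read from this share. The TET dioxygenases, which begin DNA demethylation, were all called, Tet1 (-1.12, SE 0.24, adjusted p = 0.013), Tet2 (-0.97, SE 0.15, adjusted p = 0.0042) and Tet3 (-0.85, SE 0.17, adjusted p = 0.0099). Uhrf1, the partner of the maintenance methyltransferase, was also called (-0.89, SE 0.17, adjusted p = 0.0086). Dnmt1, that methyltransferase, had 3939 and 3560.2 in Control and 2968, 2404 and 1950.1 in Prox1 OE (-0.64, SE 0.18, adjusted p = 0.031). Dnmt3a, Trim28 and Ctcf, the insulator protein that binds between H19 and Igf2, were called with smaller differences of -0.63, -0.52 and -0.39. ZFP57 is the factor that recognises methylated control regions, and its gene Zfp57 (-0.47, adjusted p = 0.15) was not called, nor were Zfp445 (-0.23, adjusted p = 0.13) and Dnmt3b (-0.32, adjusted p = 0.23), although these 3 passed with total-count scaling. Each of the 8 calls was lost without Control replicate 1, those of Ctcf, Trim28, Dnmt1, Dnmt3a, Tet1 and Tet3 also without Control replicate 2, and those of Ctcf, Dnmt1 and Dnmt3a without Prox1 OE replicate 2 or 3. With all libraries, the calls of Ctcf, Trim28, Dnmt1 and Dnmt3a were lost without the trend, those of Ctcf and Dnmt1 with no filter, and that of Ctcf with upper-quartile scaling. The replicate block ended the calls of Ctcf (adjusted p = 0.067) and Trim28 (adjusted p = 0.056). Uhrf1 and Dnmt1 are high in dividing cells, and the 4 proliferation markers (Mki67, Top2a, Ccnb1 and Cdk1) all fell, from summed counts of 37555 and 24752 in Control to 17866, 17533 and 13149 in Prox1 OE. The part of dividing cells in the values of these genes was not tested.

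Of 2 known repressors of fetal genes in adult liver, both had lower values in every Prox1 OE library, and 1 was called. Over all genes 63.3% had groups that did not overlap and 33.3% were called. Zbtb20, which silences Afp after birth, fell from 5680 and 6112 to 3884, 3784 and 3704 (-0.64, SE 0.11, adjusted p = 0.0053). The call was lost without either Control replicate. Zhx2, a repressor of Afp, H19 and Gpc3, had a log2 difference of -0.40 (SE 0.16, adjusted p = 0.087) and was not called, but passed without Prox1 OE replicate 1 (-0.54, adjusted p = 0.011) and with total-count scaling (-0.84, adjusted p = 0.0093). Afp itself, alpha-fetoprotein, had 139 and 165 in Control and 431, 209 and 138 in Prox1 OE replicates 1, 2 and 3, with groups that overlapped (0.61, SE 0.44, adjusted p = 0.31). It passed in the fit with a replicate block (0.98, adjusted p = 0.030), in which replicate 3 has no part. Gpc3, another fetal liver gene, had 131 and 108 in Control and 183, 42.5 and 39.3 in Prox1 OE (-0.80, SE 0.63, adjusted p = 0.36), and passed without Prox1 OE replicate 1 (-1.51, adjusted p = 0.0073). For both genes replicate 1, the library with the most Prox1 and the most H19, was the highest of the 3 Prox1 OE libraries.

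Among the partners of IGF2, the signalling receptor was lower. Igf1r fell from 1513 and 1507 in Control to 439.7, 259.6 and 193 in Prox1 OE (log2 difference -2.42, SE 0.31, adjusted p = 0.0029). Insr, the insulin receptor, had 2968 and 3385 in Control and 2965, 2923 and 3731 in Prox1 OE, a log2 difference of 0.01 (SE 0.15, adjusted p = 0.97) whose sign changed under some alternatives. With total-count scaling it was called lower (-0.42, adjusted p = 0.027). Igf2bp2 (0.55, SE 0.24, adjusted p = 0.12) and Igf2bp3 (-0.57, SE 0.48, adjusted p = 0.39), which encode proteins that bind Igf2 RNA, were not called.

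Protein-coding genes within 500 kb of the imprinted genes, themselves not on the imprinted lists, were counted as neighbours. Absence from these lists does not show that a neighbour is not imprinted. Of 100 such genes 54 were tested, 12 rose, 9 fell and 33 were not called, which is 38.9% called, beside 33.3% of all genes. By gene, 7 of 12 tested neighbours were called next to Igf2r (6 rose), 6 of 12 next to Cdkn1c (4 rose), 4 of 8 next to Plagl1 (1 rose), 2 of 3 next to Grb10 (both fell), and 2 of 10 next to H19. Next to Peg3, limma, edgeR and DESeq2 called 0 of 10, and 2 had an unadjusted p under 0.05. The same 3 tools called 0 of the 2 neighbours of Dlk1, with 0 at an unadjusted p under 0.05. The risers next to Igf2r included Plg, plasminogen (1.53, SE 0.29, adjusted p = 0.0085), Acat3, Acat2, Sod2 and Pnldc1, and Tcp1 fell by 0.34 on the log2 scale (SE 0.11, adjusted p = 0.049), a call lost in several alternatives. Next to Grb10, Cobl fell (-1.10, SE 0.15, adjusted p = 0.0030) by a similar amount to Grb10, while Ddc rose. Next to H19, 10 genes were tested, of which Ctsd, the lysosomal protease cathepsin D, rose (0.95, SE 0.14, adjusted p = 0.0035) and Syt8 fell (-2.03, SE 0.40, adjusted p = 0.0089). Plg, Acat2, Sod2, Ctsd and Syt8 lost their call without Control replicate 1, and Syt8 also without Control replicate 2.

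Genes whose profile over the 5 libraries was most like those of H19 and Meg3 were taken by the root mean square (RMS) difference of centred log2 values, among 12969 genes with a mean of at least 100. For H19 they were Syt5, a vesicle calcium sensor (0.15), Cyp2a4, a steroid hydroxylase (0.34), Mep1a, a meprin protease (0.39), Slc22a29, an organic anion transporter (0.45), and Gstm3, a glutathione transferase (0.48). Syt5 had 85.4 and 97.5 in Control and 1379, 694 and 459 in Prox1 OE, in the library order of H19. Cyp2a4 and Gstm3 belong to families of near-identical genes, so their counts are uncertain. For Meg3 they were Calml4, a calmodulin-like protein (0.21), Rnf186 (0.24), Tnfrsf22 (0.25), Sucnr1, the succinate receptor (0.29), and Fbxo40 (0.29). Tnfrsf22, a decoy receptor, lies within 500 kb of Cdkn1c and had 214 and 331 in Control and 1053, 719.8 and 741 in Prox1 OE. Likeness over 5 libraries is a description.

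Levels of cell type markers moved between the groups as well. Over all genes 17.1% were called higher and 16.2% lower. Summed counts of 5 hepatocyte markers were 692654 and 1134881 in Control and 2521807, 2290080.0 and 3555397 in Prox1 OE, and 4 of the 5 rose. Of 5 cholangiocyte markers 4 fell (Krt19, Krt7, Epcam and Sox9), and their sum was 29355 and 32929 in Control and 10973, 12314 and 9568 in Prox1 OE. Krt19 alone was 8442 and 10789.8 in Control and 1643, 1968 and 1785 in Prox1 OE. With Spp1, which was not called and made up most of the reads of the list, the sums were 814104 and 744939 in Control and 518885 to 701139 in Prox1 OE. Cells other than epithelium can also express Dlk1, Meg3 and Peg3. The sums of 12 stellate and myofibroblast markers were 132698 and 130074 in Control and 69898 to 85378 in Prox1 OE, where 3 rose and 4 fell. The collagen genes Col1a1, Col1a2 and Col3a1 were among the 4 that fell and made up most of that sum. The stellate markers Lrat (352 and 328 in Control, 802, 602 and 790.5 in Prox1 OE), Colec11 and Reln rose. Pdgfrb (log2 difference -0.08) and Des (-0.32) of the same list were not called. The sums of 4 mesothelial markers were 529.9 and 414 in Control and 189 to 324 in Prox1 OE, where 3 fell. Gpm6a, which was not called, made up much of these sums. Msln alone was 123 and 55.9 in Control and 1.02, 3.54 and 1.16 in Prox1 OE, and Upk3b was 61.6 and 24.6 in Control and 2.04, 0 and 2.31 in Prox1 OE. Immune markers (6 genes) summed to 4926 and 5519 in Control and 8442 to 12720.4 in Prox1 OE. Endothelial markers (6 genes) summed to 7273 and 8954 in Control and 9094 to 13199.5 in Prox1 OE. In each of these lists 2 of 6 were called higher, beside 17.1% of all genes. The higher endothelial sum lay mainly in Stab2 and Clec4g, while Pecam1, Cdh5 and Emcn were lower in every Prox1 OE library without being called. The part of cell composition in the values of H19, Meg3, Rian, Dlk1, Peg3 and Grb10 was not tested.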

How the data were processed

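Bulk RNA of 5 liver tumours was sequenced by the authors from dUTP libraries as pairs of 100 base reads and, per the labels and the study's methods, mapped to mm10 with STAR and normalised with DESeq2. The counting tool, its strand setting and its treatment of multi-mapped reads are not given in the sources used here. The deposited signal of each gene and library is its read count divided by a size factor. Whole reads were recovered for 100% of values above 0 (tolerance 0.01 reads). No column of values was left without a sample (0 columns). A table of the authors' own comparison (mean count, shrunken log2 fold change, p-value, and adjusted p-values with and without weighting of hypotheses) was not used. Replicates were distinct libraries (a chi-square test of their reads gave 39.6 per degree of freedom in Control and 80.4 to 126 in Prox1 OE).

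Genes with a mean of at least 10 (17105 of 55397) were tested two-sided with limma 3.58.1 in R 4.3.3 (lmFit, then eBayes with trend) after adding 1 and taking log2, and p-values were adjusted by Benjamini and Hochberg, with calls under 0.05. This scale understates changes of low genes. Groups came from sample titles, with no covariate. Alternatives were other scalings (TMM, upper quartile, total count), pseudocounts of 0.1 and 10, a filter at 50 or none, eBayes without trend, count tests of the recovered reads (DESeq2 1.42.0, and the quasi-likelihood test of edgeR 4.0.16), a replicate block, and each library left out. The count of genes without overlap between groups was added to the alternatives after the data were seen. Steps were tested on simulated data. Floors and totals cover counting error only. Positions are those of GENCODE M21 for GRCm38, which is mm10 and matched 55137 identifiers (99.5%).

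The members and all lists were chosen with earlier results of these data known. Named are the 10 members and every other listed imprinted gene, regulator, repressor or partner with an adjusted p under 0.05. Also named are 10 of the 21 neighbours with such a value, chosen after values were seen, and the 5 genes most like H19 and Meg3. Cell type markers with such a value are not all named. Listed genes named without such a call, the microRNAs and the promoter motif were chosen after values were seen. The other called neighbours are counted but not reported here by name.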

Additional observations from a re-analysis of the deposited data

How the results depend on the processing

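Depth limits the lowest genes, such as Igf2 at 3 reads or fewer, and 2 Control libraries limit every comparison. With 1 Control library left, the lone sample is assumed to vary like the other group. Over the alternatives, 141 of 144 log2 differences of the imprinted set moved by less than the spread between replicates and 0 changed sign. Leaving out 1 library cannot move a group mean by more than that spread. The other filters and eBayes without trend leave the difference itself unchanged. Most of these agreements were therefore fixed in advance, and stability is not read from them. The 3 larger moves came with total-count scaling, which shifted the median of all genes to -0.44. It gave -1.49 for Peg3, -1.54 for Grb10 and -0.87 for Igf2r. The same scaling gave 1475 genes higher and 6833 lower, in place of 2933 and 2769, and 13 other imprinted genes lower with a median of -0.62. That median was 0.072 with a mean of at least 50, where 29 of these genes remain by construction. Leaving out each library gave 681 to 3738 genes higher and 477 to 3753 lower. For other imprinted genes it gave 3 to 10 higher, 3 to 8 lower and a median of -0.22 to -0.11. Without each library in turn, 7 to 9 members did not overlap. On recovered reads edgeR called 3077 genes higher and 2684 lower, and DESeq2 called 3467 and 3180.

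Of 238 refitted values for 15 named imprinted genes 25 lost the call, of 304 for 19 regulators, repressors and partners 31 lost it and 8 gained it, and of 159 for 10 neighbours 16 lost it. Insr, not called at 0.01, was -0.42 and called lower with total-count scaling (adjusted p = 0.027), -0.11 with the replicate block, and between -0.11 and 0.10 with a library left out. The cause of these changes was not tested.

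A fit with the replicate number as a block has no use for Prox1 OE replicate 3, and called 5246 genes, 4873 of them also called without it, with H19 at 3.43. Deviations of same-numbered libraries had correlations of 0.137 and 0.0156, and no label ties the numbers, so the samples share only a number.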
